A study of Gallus gallus with 6 samples.

Results

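Immediate early genes were examined in the jejunum of slow-growing Korat chickens, together with the transcription factor genes CEBPB and CEBPD. The 10 genes, FOS, JUN, EGR1, ATF3, IER2, DUSP1, BTG2, MYC, CEBPB and CEBPD, were taken by symbol, and 9 of the 10 matched a gene among the 24356 listed. IER2 was not analysed here. All 9 passed the filter on low values, and CEBPD is a gene that the study itself picked out on these libraries, so its group difference is a description and not independent evidence. The study asked which jejunal transcripts differ between birds that need little feed per unit of weight gain and birds that need much, measured as the feed conversion ratio (FCR). From a flock of males in individual cages, 3 low-FCR birds (L1, L2 and L3) and 3 high-FCR birds (H1, H2 and H3) were sampled at 10 weeks of age. All 6 were Korat chickens, a cross of a Thai indigenous line with a broiler line, on the same diets. They were fasted, stunned with chloroform and bled before the jejunum was frozen, and each library is 1 bird.

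Immediate early genes are transcribed within minutes of a stimulus such as a growth factor, a cytokine or a stress, with no need for new protein. Their promoters are held ready by factors that kinases switch on, and most of their mRNAs are short-lived, so a level in a tissue reflects recent signalling. FOS and JUN pair as the AP-1 transcription factor, EGR1 and MYC drive further sets of genes, and DUSP1 closes the loop by removing phosphate from the MAP kinases that started it. CEBPB and CEBPD encode CCAAT/enhancer-binding proteins, which cytokines and glucocorticoids induce and which act in acute-phase responses. These roles are known mainly from human and mouse cells.

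Values are whole-number read counts per gene, and total counts ran from 10436038 in L3 to 11370043 in H3. Levels of a gene are compared between birds as CPM, counts scaled to a common library size after TMM normalization, whose factors ran from 0.870 to 1.06. Levels of different genes are compared as FPKM, which divides by the exonic length. A count of 3 equals 0.249 to 0.304 CPM, and each of the 9 genes lay far above it, with at least 164 counts in every bird. The log2 fold change (log2 FC) is low-FCR over high-FCR, from edgeR's quasi-likelihood test with Benjamini-Hochberg adjustment. Tested were the 14282 genes that reached 0.5 FPKM on average over the birds. The title of H3 carries the words for low FCR, while its code and the group size in the design text place it with the high-FCR birds, where it is kept. L1 stood apart with 16140 counts on chromosome W genes, against 48 to 80 in each other bird, although the study describes all the birds as males. Mitochondrial genes took 8.99% to 14.2% of counts in the low-FCR birds and 10.0% to 13.1% in the high-FCR birds. The enterocyte markers were present in all 6 libraries. Because whole jejunum was sequenced, fewer cells of a type and less RNA per cell cannot be told apart.

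None of the 9 genes differed between the groups after adjustment, and the adjusted p was 0.997 for each (edgeR's quasi-likelihood test). That share is the same as over all genes tested, of which 0% passed. By the unadjusted p, 1 of the 9 was under 0.05, which was CEBPD with a higher level in low-FCR birds. Over all genes tested, 3.24% were under this threshold, 2.02% with a higher and 1.22% with a lower level in low-FCR birds. The 7 immediate early genes other than CEBPB and CEBPD had close mean levels in both groups, with log2 FC from -0.22 for BTG2 to 0.35 for ATF3 and a median of -0.039, against 0.016 over all genes. Of these 7, 3 had a higher mean and 4 a lower mean in low-FCR birds, and their smallest unadjusted p was 0.253. These counts rested on single birds. Without H3, 6 of the 7 had a higher mean, with a median log2 FC of 0.23. Without L1, 5 of the 7 had a higher mean, with a median of 0.054. With 3 birds a group, the smallest p of an exact permutation test of a single gene is 0.1, so intervals of the log2 FC are given.

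Per length of transcript, JUN was the most abundant of the 9, with a mean of 126 FPKM over the 6 birds (84.0 to 158), which is higher than 96.4% of the genes tested. It was followed by BTG2 with 70.8 FPKM, CEBPD with 52.4, DUSP1 with 51.3, MYC with 49.5, CEBPB with 32.6, EGR1 with 27.3, FOS with 20.6 and ATF3 with 14.3. Even ATF3 stood above 60.1% of genes. Only EGR1 over FOS held in all 6 birds among neighbours of this order. JUN over BTG2, BTG2 over CEBPD, MYC over CEBPB and FOS over ATF3 each held in 5 of 6 birds. CEBPD over DUSP1 and CEBPB over EGR1 held in 2 of 6, and DUSP1 over MYC in 3 of 6, so these neighbours did not differ beyond their spread. FOS mRNA stood at 0.133, 0.177 and 0.123 times the FPKM of JUN in L1, L2 and L3, against 0.149, 0.197 and 0.209 times in H1, H2 and H3. Every bird therefore held far less FOS than JUN transcript per length.

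**Figure D1:**
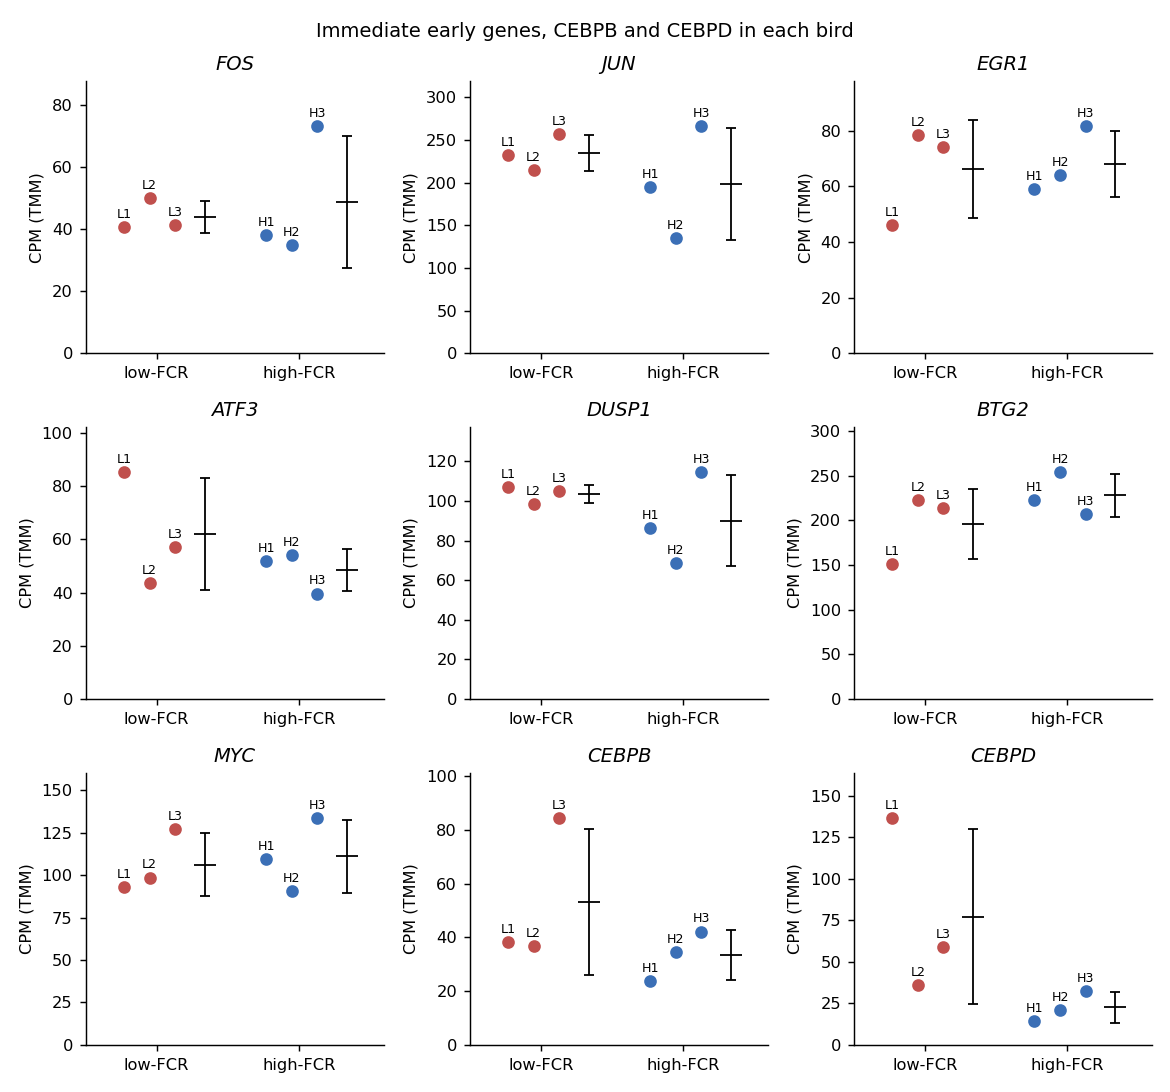
Level of each of the 9 genes as CPM after TMM normalization (linear axes that start at 0), with low-FCR birds on the left and high-FCR birds on the right. Points are single birds and the bars beside them the mean ± SD of 3 birds. The groups overlap in every panel except CEBPD, where the lowest low-FCR bird, L2 with 36.1 CPM, lies above the highest high-FCR bird, H3 with 32.7 CPM.

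FOS (ENSGALG00000028037, chromosome 5, 38430793 to 38433702 in GRCg6a, plus strand) encodes the partner of JUN that is made only after stimulation in most cells. It had 40.7, 49.9 and 41.5 CPM in L1, L2 and L3, against 38.2, 34.9 and 73.1 CPM in H1, H2 and H3. H3 was the highest bird and H1 and H2 the lowest, so the high-FCR birds spanned the low-FCR ones. The means were 44.0 ± 5.11 CPM in low-FCR and 48.8 ± 21.2 CPM in high-FCR birds (SD, n = 3 each), and the log2 FC was -0.15 (SE 0.32, 95% interval -0.87 to 0.57). This sign rested on H3, since without it the log2 FC was 0.27.

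JUN (ENSGALG00000010870, chromosome 8, 26714120 to 26715827, minus strand) forms AP-1 with FOS or with itself. Its levels were 232, 215 and 257 CPM in L1, L2 and L3, against 195, 135 and 266 CPM in H1, H2 and H3. H3 was again the highest bird and H2 the lowest, and the 3 low-FCR birds lay close together between H1 and H3. The means were 235 ± 21.3 CPM in low-FCR and 199 ± 65.6 CPM in high-FCR birds, with a log2 FC of 0.24 (SE 0.28, 95% interval -0.40 to 0.88) that was 0.026 without H2 and 0.51 without H3. JUN overlaps FGGY on the opposite strand, which had 78 to 280 counts a bird, and whether reads were counted by strand is not given in the sources used here.

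ATF3 (ENSGALG00000049422, chromosome 3, 21942839 to 21967759, minus strand) is a stress-induced relative of the AP-1 proteins that often represses its targets. Its levels were 85.2, 43.7 and 57.2 CPM in L1, L2 and L3, against 51.7, 54.2 and 39.7 CPM in H1, H2 and H3. L1 was the highest bird and H3 the lowest, the reverse of FOS and JUN for H3. The means were 62.0 ± 21.2 CPM in low-FCR and 48.5 ± 7.77 CPM in high-FCR birds, and the log2 FC was 0.35 (SE 0.29, 95% interval -0.30 to 1.01). This difference came largely from L1, as the log2 FC without it was 0.054. ATF3 overlaps TMEM206 on the opposite strand, which had 123 to 254 counts a bird.

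EGR1 (ENSGALG00000007669, chromosome 13, 18949948 to 18952753, plus strand) encodes a zinc finger factor that serum response factor and MAP kinase signals switch on. It had 46.3, 78.7 and 74.3 CPM in L1, L2 and L3, against 58.9, 64.2 and 81.6 CPM in H1, H2 and H3. H3 was the highest bird and L1 the lowest, and the groups overlapped. The log2 FC of -0.039 (SE 0.27, 95% interval -0.64 to 0.57) was the smallest in size among the 9 genes.

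DUSP1 (ENSGALG00000040360, chromosome 13, 9770031 to 9772644, minus strand) encodes the phosphatase that switches off p38 and JNK, and glucocorticoids induce it too. It had 107, 98.7 and 105 CPM in L1, L2 and L3, against 86.5, 68.9 and 114 CPM in H1, H2 and H3. The low-FCR birds were nearly alike, and the high-FCR birds lay on both sides of them. The SD of log2 CPM was 0.060 in low-FCR birds and 0.37 in high-FCR birds. The log2 FC of DUSP1 was 0.20 (SE 0.24, 95% interval -0.34 to 0.75), and without H2 it was 0.043.

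BTG2 (ENSGALG00000052763, chromosome 26, 5122814 to 5126845, plus strand) encodes an antiproliferative protein that p53 induces and that brings deadenylases to mRNA. It had 151, 223 and 214 CPM in L1, L2 and L3, against 222, 254 and 208 CPM in H1, H2 and H3. L1 lay below the other 5 birds and H2 above them, and the 4 remaining birds lay within 208 to 223 CPM. The means were 196 ± 39.1 CPM in low-FCR and 228 ± 23.7 CPM in high-FCR birds, with a log2 FC of -0.22 (SE 0.24, 95% interval -0.77 to 0.33) that was -0.067 without L1.

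MYC (ENSGALG00000033631, chromosome 2, 139734098 to 139738744, plus strand) encodes a factor that raises ribosome production and growth, and in the gut it is active in dividing crypt cells. Its levels were 92.7, 98.6 and 127 CPM in L1, L2 and L3, against 109, 90.5 and 134 CPM in H1, H2 and H3. MYC varied the least of the 9 genes, with 1.48 times between the highest bird, H3, and the lowest, H2. Its log2 FC was -0.066 (SE 0.24, 95% interval -0.61 to 0.48).

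CEBPB (ENSGALG00000008014, chromosome 20, 13708222 to 13709555, minus strand) had 38.1, 36.8 and 84.5 CPM in L1, L2 and L3, against 23.6, 34.4 and 42.2 CPM in H1, H2 and H3. L3 alone stood out, and the other low-FCR birds fell inside the high-FCR range. The means were 53.1 ± 27.1 CPM in low-FCR and 33.4 ± 9.33 CPM in high-FCR birds, with a log2 FC of 0.67 (SE 0.38, 95% interval -0.20 to 1.54, unadjusted p = 0.115 in edgeR's quasi-likelihood test). Without L3 the log2 FC was 0.16. The bird numbers in the labels fall into a five-digit series (L1, L2, L3 and H1) and a four-digit one (H2 and H3). A fit with this series as a covariate gave 1.17. Its group difference is that of L1, L2 and L3 against H1 alone, the lowest bird for CEBPB.

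CEBPD (ENSGALG00000040180, chromosome 2, 107911432 to 107912427, minus strand) had 137, 36.1 and 58.8 CPM in L1, L2 and L3, against 14.3, 20.8 and 32.7 CPM in H1, H2 and H3. The groups did not overlap, but L2 and H3 were near neighbours, and L1 stood at 9.55 times H1. In reads these levels were 1346, 404 and 643 counts in the low-FCR birds and 164, 251 and 371 counts in the high-FCR birds. The means were 77.1 ± 52.7 CPM in low-FCR and 22.6 ± 9.33 CPM in high-FCR birds, a ratio of 3.41. The log2 FC was 1.77 (SE 0.51, 95% interval 0.62 to 2.92), with an unadjusted p of 0.00719 and an adjusted p of 0.997 in edgeR's quasi-likelihood test. Leaving out L1 gave 1.06, leaving out H3 gave 2.13, and leaving out both gave 1.44, while H3 counted as a low-FCR bird gave 1.91. The unadjusted p stayed under 0.05 in each of the alternatives run, and the adjusted p ran from 0.206 to 1 over them.

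**Figure D2:**
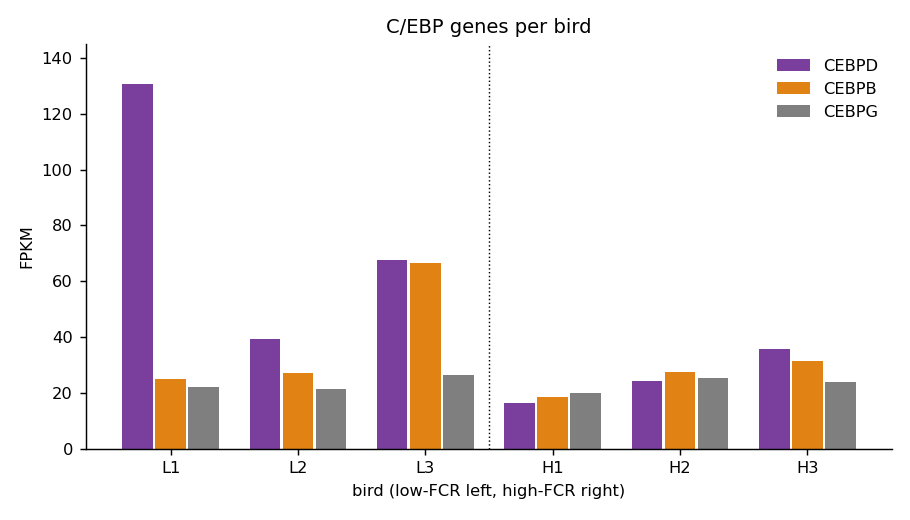
FPKM of CEBPD, CEBPB and CEBPG in each bird (bars from 0, 1 library each, so no error bar), with low-FCR birds left of the dotted line and high-FCR birds right of it. CEBPD reaches 130.5 FPKM in L1 and 67.8 in L3, CEBPB stands out only in L3 with 66.4 FPKM, and CEBPG stays between 20.0 and 26.5 FPKM.

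Within the C/EBP family the balance of transcripts differed from bird to bird. The FPKM of CEBPD was 5.25, 1.44 and 1.02 times that of CEBPB in L1, L2 and L3, against 0.888, 0.888 and 1.14 times in H1, H2 and H3, so the groups overlapped in this ratio through L3 and H3. CEBPG, a family member that lacks an activation domain of its own, varied little by comparison. CEBPD made up 73.5%, 44.6% and 42.2% of the summed FPKM of CEBPB, CEBPD and CEBPG in L1, L2 and L3, against 29.8%, 31.5% and 39.2% of it in H1, H2 and H3. Among the 9 genes CEBPD was ranked 1, 5 and 3 by FPKM in L1, L2 and L3, against ranks of 8, 7 and 5 in H1, H2 and H3. The other tested genes with a CEBP symbol had similar group means. The log2 FC was 0.11 for CEBPG (SE 0.21, 0.0095 without H1) and 0.18 for CEBPZ (SE 0.20, 0.29 without H3), which is not a C/EBP protein despite its symbol. CEBPA, CEBPE and DDIT3 were not analysed here.

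**Figure D3:**
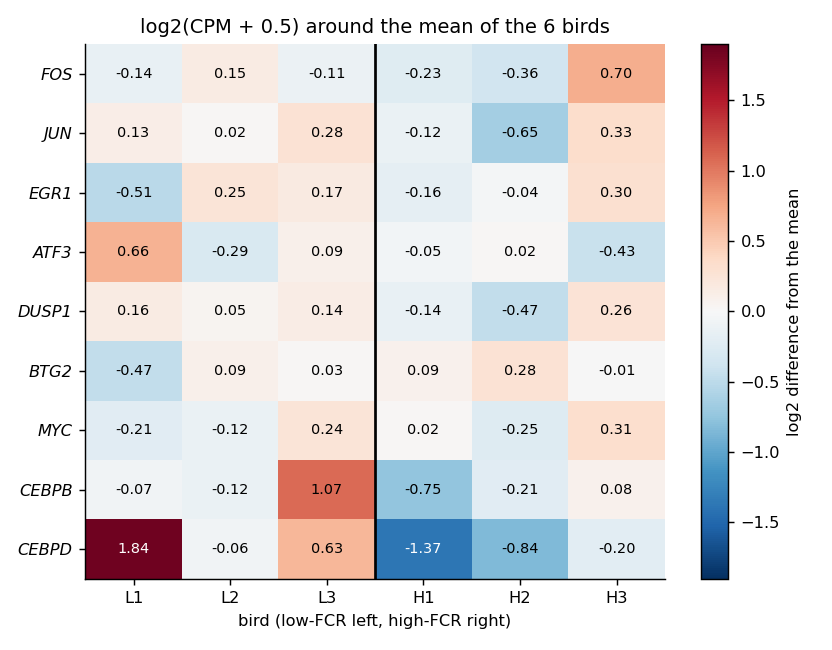
Log2(CPM + 0.5) of each of the 9 genes in each bird, as the difference from that gene's mean over the 6 birds (numbers in the cells and colour scale, in log2 units). Low-FCR birds are left of the vertical line and high-FCR birds right of it. H3 is above the mean in FOS, JUN, EGR1, DUSP1 and MYC and slightly so, by 0.077, in CEBPB. The widest differences are those of CEBPD, from 1.84 in L1 to -1.37 in H1.

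The 7 immediate early genes varied less between birds than CEBPB and CEBPD. The SD of log2 CPM over the 6 birds was 0.24 for MYC, 0.25 for BTG2, 0.27 for DUSP1, 0.31 for EGR1, 0.36 for JUN and 0.38 for both FOS and ATF3. All 7 lay below the median of 0.41 over all genes tested. Highly expressed genes vary less in counts, and among the 5192 genes of the same FPKM range, 14.3 to 126, the median was 0.33, so the 7 genes fell between the percentiles 28.3 and 59.5. CEBPB, with an SD of 0.60, stood at the percentile 85.2 of this range, and CEBPD, with 1.13, at 98.3. The SD over the 6 birds also holds the group difference, for which the study picked out CEBPD. Within groups the SD of CEBPD was 0.80, at the percentile 89.0 of all genes tested, against 97.2 for its SD over the 6 birds. For CEBPB the SD within groups was 0.56, at the percentile 70.3, against 75.0. The fold between the highest and the lowest bird was 1.48 to 2.15 for the 7 immediate early genes, 3.58 for CEBPB and 9.55 for CEBPD, against a median of 2.26 over all genes.

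The birds differed in these genes along lines that cut across the groups. H3 was the highest bird in 5 of the 7 immediate early genes, H2 the lowest in 4 and L1 the lowest in 2. Averaged over the 7 genes, the level relative to the mean of the birds was -0.053, 0.020 and 0.12 log2 units in L1, L2 and L3, against -0.085, -0.21 and 0.21 log2 units in H1, H2 and H3. The high-FCR birds thus held both ends of the order, with H2 lowest and H3 highest. JUN and DUSP1 had the most alike profiles of all 36 pairs among the 9 genes, with a root mean square difference of standardized levels of 0.179. The next pairs were JUN with MYC at 0.702, FOS with DUSP1 at 0.715 and ATF3 with CEBPD at 0.741. CEBPB and CEBPD lay further apart, at 0.896, and the pair least alike was EGR1 with ATF3, at 1.77. All of these profiles share the same 6 libraries, and they are given as descriptions.

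**Figure D4:**
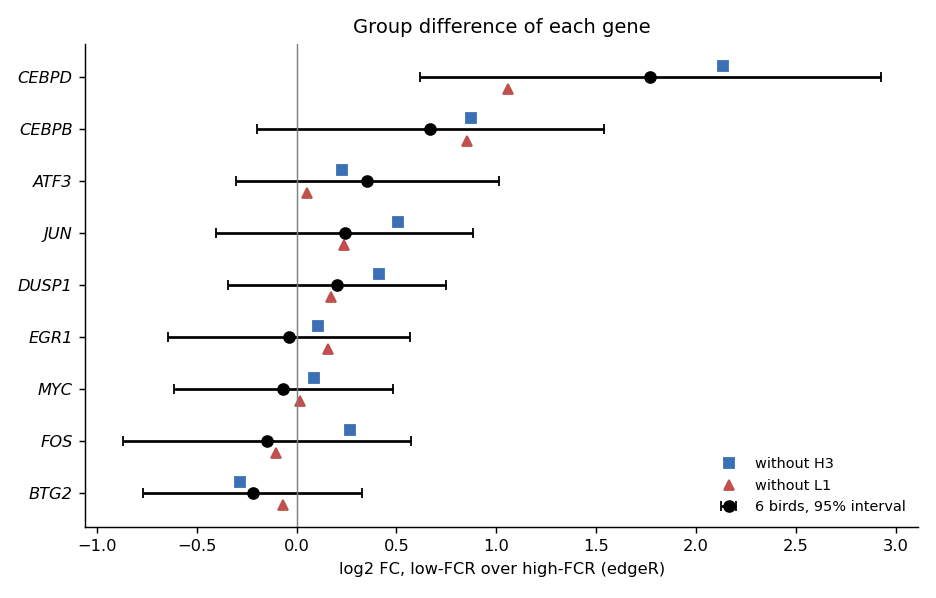
Log2 FC, low-FCR over high-FCR, of each of the 9 genes from edgeR (black points, 6 birds, with 95% intervals), with the values without H3 (blue squares) and without L1 (red triangles). Only the interval of CEBPD stays above 0, and without H3 the points of FOS, EGR1 and MYC move to the other side of 0.

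The count of genes whose groups did not overlap depended on H3. With all 6 birds it was 1 of 9, CEBPD, whereas 6.36% of all genes tested did not overlap, 2.97% with a higher and 3.4% with a lower level in low-FCR birds. Without H3 the count was 5 of 9, namely FOS, JUN, DUSP1, CEBPB and CEBPD, each higher in all the low-FCR birds than in H1 and H2, against 13.9% of all genes. The groups of CEBPD were apart with all 6 birds, so leaving out a bird could not make them overlap. With H3 grouped as low-FCR the same 5 genes did not overlap either, against 9.71% of all genes. H3 lay above H1 and H2 in each of the 5, so this is not separate from the result without H3. Without L1 and H3, EGR1 joined these 5 genes to make 6 of 9, against 22.8% of all genes. CEBPB then had an unadjusted p of 0.0496 (edgeR's quasi-likelihood test). In none of these settings did an adjusted p of any of the 9 genes come under 0.05. The direction of FOS, EGR1 and MYC turned in several of these settings, so no direction is given for them.

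Tested genes with a symbol, members left out, were ranked by how near their pattern over the 6 birds was to that of CEBPD. The nearest were NUP62, a nuclear pore component, with a root mean square difference of 0.1003, and UBE2F, which conjugates NEDD8, with 0.101. Next came the sodium channel subunit gene SCN4B with 0.125, CHCHD5 with 0.162 and the translation repressor gene EIF4EBP1 with 0.172. With many genes searched over only 6 birds, such nearness is a description and not evidence of a link. EIF4EBP1 had 157.9, 109.9 and 124.0 CPM in L1, L2 and L3, against 93.3, 91.4 and 109.6 CPM in H1, H2 and H3. Its pattern was close to that of CEBPD with a far smaller span, but its lowest bird was H2 and not H1. In the same kind of ranking, the genes nearest to the mean profile of the 7 immediate early genes were ADAMTS4, a protease of the extracellular matrix, with 0.135, the ribosomal protein gene RPL17 with 0.150, MOB1A with 0.173, RAB4A with 0.198 and E2F6 with 0.215. RPL17 had 745, 803 and 977 CPM in L1, L2 and L3, against 733, 666 and 1074 CPM in H1, H2 and H3.

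Among 36 other immediate early genes, 25 had a higher and 11 a lower mean in low-FCR birds, with a median log2 FC of 0.15 (0.078 without L3 and 0.24 without H3). None passed adjustment, and 1 in each direction had an unadjusted p under 0.05 in edgeR's quasi-likelihood test. Over all genes tested, 2.02% were under this threshold and higher, and 1.22% under it and lower. GADD45A, a growth arrest gene of the DNA damage response, had 57.1, 32.5 and 62.1 CPM in L1, L2 and L3, against 30.5, 24.6 and 34.6 CPM in H1, H2 and H3, with a log2 FC of 0.76 (SE 0.30). L1 and L3 were high and L2 lay within the high-FCR range. NR4A3, an orphan nuclear receptor gene, had 2.03, 4.82 and 3.75 CPM in L1, L2 and L3, against 5.84, 11.9 and 6.08 CPM in H1, H2 and H3, with a log2 FC of -1.16 (SE 0.49) that was -0.75 without H2. It was lower in every low-FCR bird than in any high-FCR bird. KLF10, an early target of TGF-beta, was higher in all 3 low-FCR birds than in the high-FCR birds, with a log2 FC of 0.48 (SE 0.23) that was 0.29 without L1.

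Of 16 partners of AP-1 and ATF, 11 had a higher and 5 a lower mean in low-FCR birds, with a median log2 FC of 0.13 (0.083 to 0.22 with 1 bird left out). JDP2, a repressor that binds JUN, had the smallest unadjusted p, 0.0443 in edgeR's quasi-likelihood test. It had 41.6, 16.7 and 47.9 CPM in L1, L2 and L3, against 19.7, 18.2 and 18.9 CPM in H1, H2 and H3, so that L1 and L3 were high and L2 was the lowest bird. MAFK had a log2 FC of 0.87 (SE 0.45, 0.49 without L1) and CREM one of 0.47 (SE 0.29, 0.29 without L3). Of 8 other dual specificity phosphatases, 3 had a higher and 5 a lower mean, with a median log2 FC of -0.094 (-0.26 to -0.019 with 1 bird left out). DUSP5 and DUSP4, nuclear phosphatases that ERK signals induce, had log2 FC of -0.66 (SE 0.36) and -0.67 (SE 0.37), and DUSP5 stood at -1.07 without L2. DUSP14 had one of 0.47 (SE 0.40), which rested on L1 and was 0.023 without it. None of the 8 had an unadjusted p under 0.05.

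Genes upstream of immediate early promoters, such as MAP kinases, serum response factor partners and STATs, had close group means. Of 22 tested, 10 had a higher and 12 a lower mean in low-FCR birds, with a median log2 FC of -0.013 (-0.074 to 0.11 with 1 bird left out). ELK4 at -0.44 (SE 0.41), MAPK11 at 0.55 (SE 0.52) and STAT3 at 0.17 (SE 0.23) had the smallest p of the list, and none was under 0.05. Without L1 these were -0.22 for ELK4 and 0.083 for STAT3, while MAPK11 was 0.083 without L3 and 1.11 without H2. Of 11 genes of the MYC network, 7 had a higher and 4 a lower mean, with a median log2 FC of 0.059 (-0.025 to 0.34 with 1 bird left out). MLXIPL, the glucose-sensing factor ChREBP, had a log2 FC of 0.80 (SE 0.45), its dimer partner MLX one of 0.39 (SE 0.24) and the MAX dimerization gene MXD4 one of -0.50 (SE 0.34). MLXIPL rested on L1, with 247 CPM there and 0.24 for the log2 FC without it, while L3 with 57.3 CPM was the lowest bird. Without L3 the log2 FC was 0.23 for MLX and -0.21 for MXD4. Of 18 targets of MYC, 10 had a higher and 8 a lower mean, with a median of 0.026 (-0.085 to 0.12 with 1 bird left out), and NPM3 at -0.64 (SE 0.30), RRS1 at 0.99 (SE 0.55) and ODC1 at -0.35 (SE 0.25) led the list. RRS1 rested on L1 and was 0.20 without it, and without H3 NPM3 was -0.41 and ODC1 -0.19. No gene of these 3 lists had an unadjusted p under 0.05 in edgeR's quasi-likelihood test.

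In mammals, genes that glucocorticoids induce include DUSP1 and CEBPD. A list made up mostly of such genes had a higher mean in low-FCR birds for 13 of 18, with a median log2 FC of 0.31. This median rested on L3 and was 0.026 without it. The 18 also hold the steroid receptor genes NR3C1 and NR3C2 and the steroid-converting enzyme gene HSD11B2, so these values are not those of induced genes alone. By the unadjusted p, 2 of the 18 were under 0.05, both higher, against 2.02% of all genes tested, and 0 passed adjustment. TSC22D3, which encodes the glucocorticoid-induced leucine zipper, had 301, 183 and 388 CPM in L1, L2 and L3, against 163, 117 and 182 CPM in H1, H2 and H3. Its groups did not overlap, although L2 and H3 nearly met, and the log2 FC was 0.92 (SE 0.32). PDK4, a kinase that spares glucose in fasting, had 139, 46.5 and 328 CPM in the low-FCR birds and 77.1, 65.2 and 60.5 CPM in the high-FCR birds. L2 was the lowest bird for PDK4, whose log2 FC was 1.34 (SE 0.57) with all birds and 0.46 without L3, and CRISPLD2 had a log2 FC of 1.33 (SE 0.64) that was 0.62 without L1.

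Cytokine receptors, acute-phase genes and other genes known for C/EBP sites had no common direction, with 10 of 19 higher and 9 lower and a median log2 FC of 0.0093 (-0.046 to 0.13 with 1 bird left out). NOS2, the inducible nitric oxide synthase gene, was the 1 gene of the 19 with an unadjusted p under 0.05, against 3.24% of all genes tested. It had 36.0, 36.2 and 30.4 CPM in L1, L2 and L3, against 41.9, 65.2 and 106.5 CPM in H1, H2 and H3. Its groups did not overlap, with a log2 FC of -1.06 (SE 0.34) that lay on the opposite side from CEBPD. Without H3 this difference was -0.65, and with H3 counted as a low-FCR bird it was -0.035. SOCS3, the feedback inhibitor of STAT3, had a log2 FC of 0.97 (SE 0.50), and the complement gene C3 one of -0.75 (SE 0.42). SOCS3 rested on L1, which had 135 CPM, and its log2 FC without L1 was 0.058. C3 was lower in every low-FCR bird than in any high-FCR bird. L1 was the lowest with 25.1 CPM, and without it the log2 FC of C3 was -0.36.

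Of genes that ATF4 induces in the integrated stress response or that answer to unfolded protein, 9 of 9 had a higher mean in low-FCR birds, with a median log2 FC of 0.41 that was 0.18 without L3. CHAC1, which breaks down glutathione and which the study also picked out on these libraries, had 12.7, 5.36 and 16.0 CPM in L1, L2 and L3, against 3.31, 3.15 and 4.05 CPM in H1, H2 and H3. In reads these were 125, 60 and 175 counts in low-FCR birds and 38, 38 and 46 counts in high-FCR birds, with no overlap and a log2 FC of 1.69 (SE 0.47, unadjusted p = 0.00592, edgeR's quasi-likelihood test). PSAT1 had a log2 FC of 0.89 (SE 0.51) that was 0.35 without L1. HSPA5, the endoplasmic reticulum chaperone, had 1899, 595 and 2048 CPM in the low-FCR birds and 553, 590 and 1356 CPM in the high-FCR birds, so H3 stood with L1 and L3. The log2 FC of HSPA5 was 0.86 (SE 0.53), and without H3 it was 1.41.

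Heat shock genes had a higher mean in low-FCR birds for 16 of 19. Their median log2 FC was 0.49 (0.35 without L3, 0.78 without L2 and 1.11 without H3), against 0.016 over all genes tested. Of the 19, 3 had an unadjusted p under 0.05, all with a higher level in low-FCR birds. Over all genes tested, 2.02% were under 0.05 and higher. The small heat shock protein gene HSPB9 had 117, 7.86 and 849 CPM in L1, L2 and L3, against 26.2, 22.0 and 36.0 CPM in H1, H2 and H3, with a log2 FC of 3.53 (SE 1.24). L3 and L1 were high, L2 was the lowest of all birds, and without L3 the log2 FC was 1.15. The co-chaperone genes DNAJA4 and BAG3 were likewise highest in L1 and L3, with log2 FC of 1.28 (SE 0.49) and 1.37 (SE 0.57). Averaged over the genes of the list, log2 CPM relative to the mean of the birds was 0.59, -0.72 and 0.97 log2 units in L1, L2 and L3, against -0.56, -0.39 and 0.11 log2 units in H1, H2 and H3. L1 and L3, the birds with the most CEBPD, were also highest in this average and L2 was lowest, although in summed CPM L2 with 4741 lay above H1 with 4426 and H2 with 4652.

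Of 13 genes of the p53 pathway and the BTG family, 11 had a higher and 2 a lower mean in low-FCR birds, with a median log2 FC of 0.12 (0.075 to 0.32 with 1 bird left out). PHLDA3 and GADD45A, 2 of the 13, had an unadjusted p under 0.05 in edgeR's quasi-likelihood test. Both were higher, against 2.02% of all genes tested, and 0 passed adjustment. PHLDA3, a p53 target that restrains AKT, had 2.13, 0.536 and 15.3 CPM in L1, L2 and L3, against 0.872, 0.0830 and 0.881 CPM in H1, H2 and H3, with a log2 FC of 3.30 (SE 1.23) that was 1.12 without L3. In reads these were 21, 6 and 167 counts in L1, L2 and L3, against 10, 1 and 10 counts in H1, H2 and H3. The ratio thus rested on few reads outside L3, and the level in H2 was under that of 3 counts. TOB2, a relative of BTG2, had a log2 FC of 0.27 (SE 0.20), and GADD45A, described above, stands in this list too. Several genes stand in more than 1 list, so the lists are not separate evidence.

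**Figure D5:**
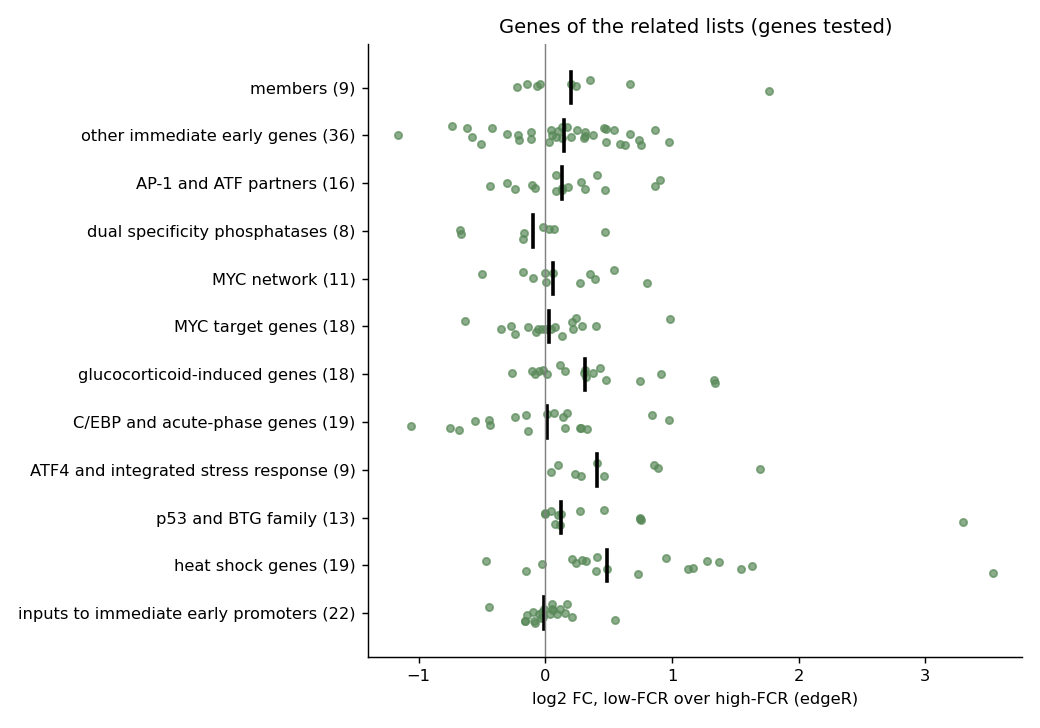
Log2 FC, low-FCR over high-FCR, of the tested genes of each related list (points, with the number tested in parentheses), the 2 remaining tested genes with a CEBP symbol left out, and the median of each list (black bars). The medians run from -0.094 for the dual specificity phosphatases to 0.49 for the heat shock genes, against 0.016 over all genes tested.

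Markers of other cell types also differed between birds, and their part in the values above was not tested. Sums cover all genes of a marker list that matched by symbol, also those under the filter. Smooth muscle markers, 9 of 9 tested, summed to 4888 to 19385 CPM in the low-FCR birds and 6232 to 12722 CPM in the high-FCR birds, with L1 highest. The 8 tested T cell markers all had a lower mean in low-FCR birds. The 10 matched ones summed to 599 to 1211 CPM in low-FCR birds, against 988 to 1793 CPM in high-FCR birds. L1 was the lowest bird for them and H3 the highest. The 4 tested erythrocyte markers all had a higher mean. Groups did not overlap in 3 of them. By edgeR's quasi-likelihood test, 2 had an unadjusted p under 0.05 and 0 passed adjustment. The 8 matched ones summed to 111 to 124 CPM in low-FCR birds and 70.1 to 90.1 CPM in high-FCR birds. HBZ was at 0 in all libraries. The average log2 CPM of this list, relative to the mean of the birds, ranked the birds as CEBPD did. It was 0.48 for L1, 0.44 for L3, 0.28 for L2, -0.090 for H3, -0.31 for H2 and -0.80 for H1. In summed CPM, H2 with 90.1 lay above H3 with 76.6. Whether erythrocyte content bears on CEBPD was not tested. Endothelial markers had a higher mean for 7 of 7, with sums of 328 to 727 CPM in low-FCR and 351 to 468 CPM in high-FCR birds. Of 8 macrophage markers, 1 had a higher and 7 a lower mean, with sums of 651 to 1026 CPM in low-FCR birds and 669 to 1275 CPM in high-FCR birds. Heterophil markers, of which 4 of 7 were tested, summed to 36.2 to 122 CPM in low-FCR birds and 37.0 to 77.8 CPM in high-FCR birds, with the defining genes AvBD2 and CATHL2 at 0.

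Enterocyte markers, 11 of 11 tested, summed to 6850 to 17070.4 CPM in low-FCR birds and 3569 to 15758 CPM in high-FCR birds. Bird H3, with the highest FOS, JUN, EGR1, DUSP1 and MYC, had the lowest enterocyte sum, and L1, with the highest CEBPD, had the highest. H1, with the lowest CEBPD, came next to L1 with 15758 CPM. H2, the lowest bird for FOS, JUN, DUSP1 and MYC, came next to H3 with 5557 CPM. The full order of the birds in this sum was not that of CEBPD or of these immediate early genes, although L1 was highest in both the sum and CEBPD. The part of enterocyte content in these levels was not tested. Crypt and proliferation markers had a lower mean for 9 of 11, with sums of 767 to 1108 CPM in low-FCR birds and 738 to 1444 CPM in high-FCR birds. Fibroblast markers summed to 2912 to 6670 CPM in low-FCR birds and 2323 to 5156 CPM in high-FCR birds, with 7 of 10 higher. B and plasma cell markers summed to 1187 to 2601 CPM in low-FCR birds and 1231 to 3969 CPM in high-FCR birds, with 2 of 6 higher. Markers of enteric neurons were higher in mean for 7 of 8 tested, those of striated muscle for 7 of 8 and those of the distal small intestine for 5 of 6. Enteric neuron markers summed to 22.9 to 91.4 CPM in low-FCR birds and 23.1 to 42.9 CPM in high-FCR birds, and distal small intestine markers to 2508 to 7392 CPM in low-FCR birds and 866 to 2794 CPM in high-FCR birds. L1 and L3 were highest in both sums, as they were for CEBPD, but the other birds were in another order. L2 had the lowest neuron sum, 22.9 CPM. H1, the lowest bird for CEBPD, lay above L2 in both sums, with 42.9 CPM and 2794 CPM. Striated muscle markers, of which the study picked out MYOZ3 and NRAP on these libraries, summed to 39.2 to 108.7 CPM in low-FCR birds and 33.7 to 108.6 CPM in high-FCR birds, with L1 and H1 highest. MYLPF of striated muscle and HOXC10 of the distal gut were at 0 in all libraries.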

How the data were processed

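RNA from the jejunum of 6 birds was sequenced, with 1 library per bird. Per the submitters' processing notes and the study's methods, reads were trimmed with cutadapt 1.9.1, mapped to GRCg6a with HISAT2 2.0.1 and counted per gene with HTSeq 0.6.1, and the deposited whole-number counts are these. The deposited FPKM were computed by the authors from the counts, the exonic length and the library total, which was checked on the values (100% within 0.0051). Cufflinks 2.2.1 and DESeq2 are also named there. Strand settings are not given in the sources used here.

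Counts were analysed in R 4.3.3 with edgeR 4.0.16: TMM factors, a filter at 0.5 FPKM on average over the birds, the quasi-likelihood test without covariates and Benjamini-Hochberg adjustment over the 14282 genes tested. The SE of a log2 FC is its size over the square root of F. Profiles used log2(CPM + 0.5), standardized per gene. Alternatives were DESeq2 1.42.0, limma 3.58.1 on log2(FPKM + 0.5) and log2(FPKM + 1), other filters and size factors, a replicate block, the bird number series as a covariate, birds left out and H3 regrouped. The members and lists were chosen with earlier results of these data known. Named were all members, the 3 genes of each pathway list with the smallest p, and the 5 genes nearest in profile to CEBPD and to the 7 immediate early genes, while marker lists are given by sums. The genes nearest in profile were sought among tested genes with a symbol, members left out. Replicates are different birds. Libraries of a group differed by far more than sampling noise (chi-square per degree of freedom from 48.1 to 106). Counting limits cover counting error only, since reads carried no molecular identifiers. Scripts were tested on simulated data. A promoter motif search was not run. IER2 was not analysed here.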

Additional observations from a re-analysis of the deposited data

How the results depend on the processing

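With 3 birds a group, the interval of the log2 FC spans more than 1 log2 unit in each of the 9 genes. None of the 9 genes passed adjustment in any setting run here. The study's own DESeq2 result gave CEBPD an adjusted p under 0.05, with a smaller difference in the same direction. The DESeq2 run here gave CEBPD a log2 FC of 1.77 and an adjusted p of 0.206. The study's own cutoff on the adjusted p was looser than 0.05. Its gene filter and the way it estimated fold changes are not given in the sources used here, so the sizes are not directly comparable. CEBPD, CEBPB, JUN, DUSP1 and BTG2 kept their direction in all 17 alternatives. The log2 FC of CEBPD ran from 1.06 without L1 to 2.43 with the bird number series as a covariate. With H3 grouped as low-FCR the sign turned in FOS (0.49), EGR1 (0.19) and MYC (0.18), and without L1 and H3 in FOS (0.33), EGR1 (0.32), MYC (0.18) and ATF3 (-0.062). With the series term the group difference is that of L1, L2 and L3 against H1 alone. The sign then turned in FOS (0.21), EGR1 (0.17) and ODC1 (0.090). With 1 bird left out, the log2 FC ran from -0.34 to 0.27 in FOS, from -0.20 to 0.16 in EGR1 and from -0.22 to 0.088 in MYC, positive without H3 in all 3 genes and without L1 in EGR1 and MYC. The cause was not tested.

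The 463 genes with an unadjusted p under 0.05 became 710 without a filter, 172 with the series term, 245 without L1 and H3, and 293 (without H2) to 1416 (without L2) with 1 bird left out. Of those 463, 62.4% were higher in low-FCR birds. Of the genes under 0.05 in limma, 32.9% and 29.3% were higher on log2(FPKM + 0.5) and log2(FPKM + 1), where the median log2 FC of all genes was -0.092 and -0.084, against 0.016. The share was 43.6% with the series term and 44.7% without H2. DESeq2 called 8 genes after adjustment and limma 0, and none of the 9 was among them. With H3 as low-FCR, 5 of the 9 genes had groups that did not overlap, against 9.71% of all genes. Without L1 and H3 there were 6, against 22.8% of all genes. With 1 bird left out there were 1 to 5. Without H3 the share of all genes was 13.9%, and it was not computed for the other birds. The median log2 FC of the 9 genes, 0.20, was 0.45 with H3 as low-FCR and 0.026 to 0.27 with 1 bird left out. Of the 9, 2 had an unadjusted p under 0.05 without L1 and H3.

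Same-numbered birds deviated with correlations of 0.19, 0.17 and 0.0054 over genes, against -0.26 to 0.11 for birds of different numbers. Whether the numbers pair the birds cannot be told from these values. With the replicate number as a block, 2 genes passed adjustment, neither of them among the 9, and CEBPD had a log2 FC of 1.59. PSAT1 lies on chromosome Z and gave no value without chromosomes W and Z.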
